A study of Mus musculus with 15 samples.

Results

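The genes described here encode proteins of the chemical synapse: 39 genes, of 24421 in the deposited tables, whose products form the synaptic vesicle, its release machinery, the vesicular transmitter transporters, the adhesion pairs across the cleft and the postsynaptic scaffold. They were chosen by name, and each row was read in all 5 groups of the study. By the usual place of action of their products, 27 were taken as presynaptic and 12 as postsynaptic. All 39 were found in each of the 3 tables, and all 39 had a mean of at least 10 normalized counts in every comparison, the minimum set for a test. Normalized counts printed here are the reads of a gene divided by 1 size factor per library, with the 15 libraries on a common scale. Within 1 table, each log2 fold change comes from limma on log2(normalized count + 1) in that table. Comparisons that span 2 tables used the scales given below. RNA was measured in mouse brain tumour tissue of 2 models: HGG, for high-grade glioma, which is a rapidly growing tumour of glial character, and EPN, for ependymoma, which resembles the ependymal lining of the ventricles. The groups, of 3 libraries each, were HGG control, HGG Sox9-LOF (loss of function), HGG Sox9-GOF (gain of function), EPN control and EPN Sox9-GOF. The labels give no strain, age or driver alleles and do not say how Sox9 function was altered, and the same 3 HGG controls serve every comparison with HGG controls. Whether the 3 libraries of a group stem from different animals is not said in the labels, and p-values measure only the spread between libraries, which may be technical in part.

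At a chemical synapse, vesicles filled with transmitter are docked at the active zone, and calcium entry makes the SNARE proteins fuse them with the plasma membrane. Neurexins on the presynaptic side bind neuroligins on the postsynaptic side, where scaffold proteins of the DLG, SHANK and HOMER families hold receptors and signalling enzymes such as calcium/calmodulin-dependent kinase. In the brain most, but not all, of these genes are read mainly in neurons. In whole tumour tissue the level of each gene can come from neurons in or around the tumour, from tumour cells or from other cells. Fewer neurons and less RNA per neuron cannot be told apart in such bulk samples.

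Depth ran from 4665428 to 14119140 reads per library, with a median of 10578708. Sox9 itself, a transcription factor of glia and cartilage, had 218, 285 and 310 normalized counts in HGG control; the libraries labelled Sox9-LOF had 739, 579 and 395. The RNA level of Sox9 was thus above each control in the libraries labelled Sox9-LOF. The log2 fold change was 1.03 ± 0.30 (SE), with a limma adjusted p = 0.18, so it was not called. The RNA level shows no loss of Sox9, and the label does not say how function was lost. Directions drawn from that group rest on its label alone. Sox9 was at 1276, 1537 and 1391 in HGG Sox9-GOF, at 1045, 1040 and 1189 in the EPN controls and at 2055, 1834 and 2692 in EPN Sox9-GOF. One library stood apart: in HGG control 1 the 7 choroid plexus markers (Ttr, Kl and Folr1 among them) summed to 109680 normalized counts, against 141 and 110 in HGG controls 2 and 3, and the 11 astrocyte markers summed to 11597 against 42221 and 53119. Results that rest on this library are given with and without it. Defining markers of neurons (Rbfox3, Tubb3, Map2), astrocytes, oligodendrocyte precursors, mature oligodendrocytes, microglia and endothelium were above 0 in every group.

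Promoter sequence is a property that the choice of genes did not use, and is shown first for the members that hold short words bound by known factors. RefSeq windows of build GRCm38.p6, from 250 bases before to 50 after the start site, were available for 28 of the 39 members and for 17224 genes of the tables, and were searched on both strands. Camk2a, Nlgn3, Nrxn2, Rims2, Shank1, Shank2, Snap25, Syt4, Syt5, Syt7 and Vamp2 had no entry. The left arm of the RE1 element (TTCAGCACC), the element bound by the neuronal gene repressor REST, lay in 3 of 28 member windows (Syn1, Unc13a and Nlgn1) and in 0.493% of all windows. Its right arm lay in 1 member window, that of Unc13a, and in 0.209% of all windows. The cyclic AMP response element (TGACGTCA) lay in the Syn1 window and in 2.62% of all windows. The word ACAATGG, 1 of 2 forms searched of the short word that SOX proteins bind, lay in the windows of Vamp1 and Sv2a and in 3.67% of all, and the form ACAAAGG in those of Slc17a6 and Nlgn1 and in 6.38% of all. More words were searched in a first look, these 5 were kept after their matches had been seen, and no 2 of them overlap. A match is a description of letters and no evidence of binding. The stretches below hold the words in the windows of Syn1, Nlgn1, Vamp1 and Sv2a. They are read 5′ to 3′ on the strand of the gene, with the words in capitals. None of them overlaps an annotated exon.
Syn1, chrX:20921058-20921158, minus strand, left arm of RE1 and cyclic AMP response element: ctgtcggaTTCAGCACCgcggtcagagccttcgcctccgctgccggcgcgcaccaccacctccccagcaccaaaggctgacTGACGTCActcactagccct
Nlgn1, chr3:26154096-26154174, minus strand, left arm of RE1: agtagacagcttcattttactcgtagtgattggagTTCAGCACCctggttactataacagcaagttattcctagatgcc
Nlgn1, chr3:26153987-26154041, minus strand, SOX word on the other strand: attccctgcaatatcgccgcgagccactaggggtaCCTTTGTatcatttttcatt
Vamp1, chr6:125215413-125215489, plus strand, SOX word: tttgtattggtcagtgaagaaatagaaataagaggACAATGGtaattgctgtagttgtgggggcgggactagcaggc
Sv2a, chr3:96181076-96181150, plus strand, SOX word: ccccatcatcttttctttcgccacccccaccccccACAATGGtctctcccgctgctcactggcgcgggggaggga
The Syn1 stretch carries its 2 words in 1 window, and the Nlgn1 window carries the left arm of RE1 and a SOX word. In the values below, Nlgn1 had non-overlapping higher values in both altered HGG groups. The other members with a word, Syn1, Unc13a, Vamp1, Sv2a and Slc17a6, overlapped their controls in both. A link between these words and the levels was not tested.

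Levels between genes were compared as normalized counts per kilobase of exon. Over the 15 libraries the presynaptic genes with the highest mean were Syt11 (887), Cplx1 (738), Snap25 (712), Vamp2 (654), Syp (555) and Slc17a7 (510). Syt11 is a synaptotagmin that does not sense calcium, and Cplx1 is a complexin that binds the SNARE complex. Snap25 and Vamp2 are SNARE proteins, Syp is the vesicle protein synaptophysin, and Slc17a7 is the transporter VGLUT1 that loads glutamate. Sv2c (10.3), a minor form of the vesicle glycoprotein SV2, was the lowest presynaptic gene. On the postsynaptic side Nrgn (1727), the calmodulin-binding protein neurogranin, led Camk2a (680) and Camk2b (254), which are kinase subunits, and Nlgn2 (206), the neuroligin of inhibitory synapses; Shank2 (20.5) was lowest. The order moved with the group. Nrgn ranked first of 39 in HGG control (4209 ± 4230.4 per kilobase, SD, n = 3), in both altered HGG groups and in EPN control (656 ± 351), but in EPN Sox9-GOF (160 ± 131) it stood behind Syt11 (183 ± 53.1) and Vamp2 (167 ± 38.2). These 3 neighbours in EPN Sox9-GOF do not differ beyond their spread.

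**Figure D1:**
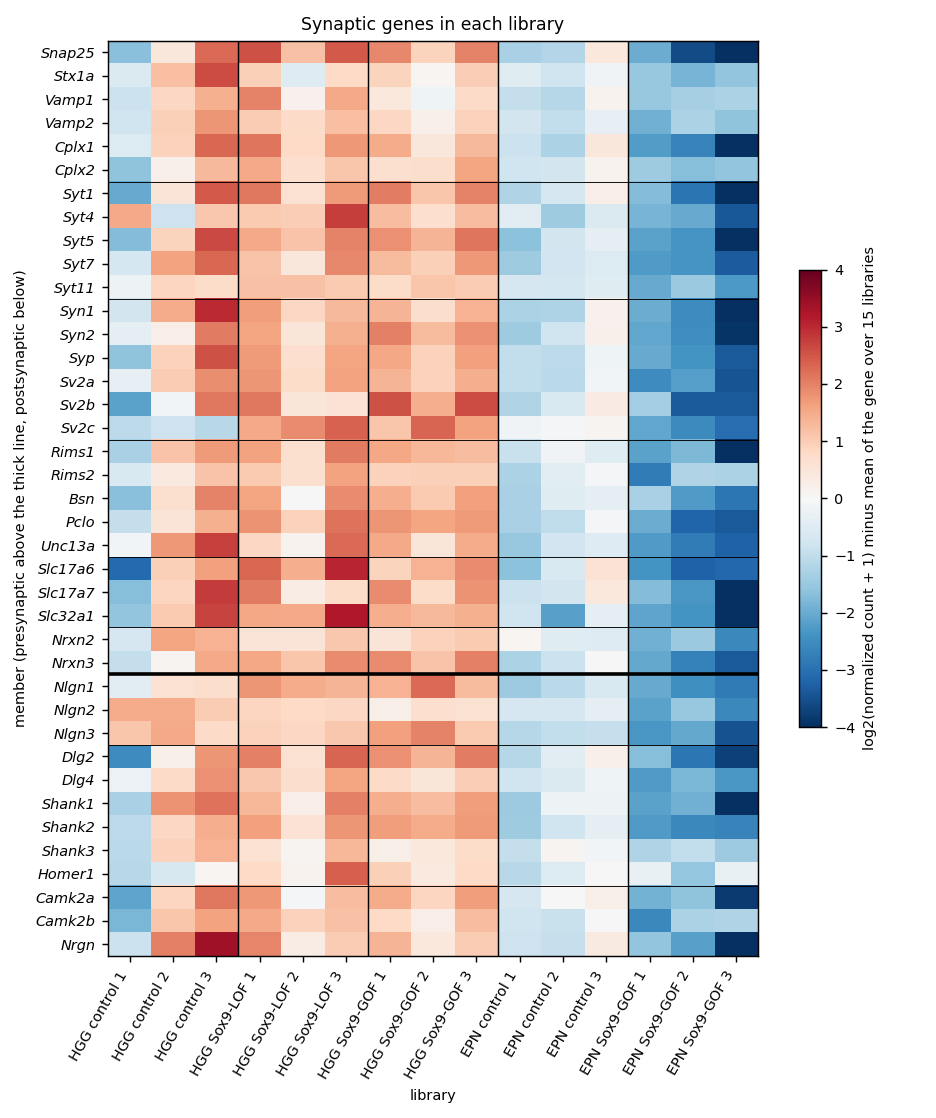
Each cell shows log2(normalized count + 1) of 1 gene in 1 library minus the mean of that gene over the 15 libraries, with presynaptic genes above the thick line and postsynaptic genes below it. The 3 EPN Sox9-GOF columns hold the lowest values for 27 of the 39 genes, and HGG control 1 is lower than the other HGG controls for 35.

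Between the EPN groups, all 39 genes had a lower mean in EPN Sox9-GOF than in EPN control, with a median log2 fold change of -1.80, against 0.04 over the 14591 genes tested. A negative value was found in 45.0% of all genes. In 34 of the 39 genes (24 of 27 presynaptic and 10 of 12 postsynaptic) the 3 EPN Sox9-GOF libraries all lay below the 3 controls, against 12.5% of all genes, and in 0 of the 39 they all lay above, against 9.45%. No gene of any kind passed limma's adjusted threshold of 0.05 in this comparison (0%), although 35 of the 39 had an unadjusted limma p under 0.05. edgeR's quasi-likelihood test called 0 genes, and DESeq2 on the recovered reads called 28 of the 39 lower (21 presynaptic and 7 postsynaptic) and 0 higher, against 4.95% of genes called lower. An exact permutation test of 3 against 3 libraries cannot give less than 0.1, and it gave 0.1 for each of the 34.

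Among the release proteins, Snap25 (chr2:136713453-136782428, GRCm38, plus strand) stood at 919, 1008 and 3035 normalized counts in the EPN controls and at 565, 189 and 101 in EPN Sox9-GOF. This was the largest difference of the 39, a log2 fold change of -2.62 ± 0.69 (SE), or 6.16-fold lower. Its SNARE partners had smaller values: Vamp2 was at 1152, 970 and 1531 and then at 503, 792 and 616 (-0.89 ± 0.24), and Vamp1 had -0.67 ± 0.36. Stx1a, the plasma membrane syntaxin, was at 252, 201 and 320 in the controls and at 121, 95.1 and 117 in Sox9-GOF, with no overlap. The 2 complexins differed in size: Cplx1 was at 506, 380 and 1257 against 194, 145 and 57.6 (-2.35 ± 0.57), and Cplx2 had -1.06 ± 0.27.

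The 5 synaptotagmins, vesicle proteins of which several are calcium sensors, ran from -2.39 for Syt1 to -1.27 for Syt11. Syt11 was at 2229, 2166 and 2553 in the controls and 882, 1258 and 720 in EPN Sox9-GOF. All 6 vesicle proteins had non-overlapping groups and were called lower by DESeq2, with a median of -2.08. Syp was at 839, 792 and 1461 and then at 407, 316 and 160. Sv2c (chr13:95954594-96132577, GRCm38, minus strand) was at 49.6, 53.0 and 59.1 and then at 12.3, 8.72 and 5.76, which is -2.47 ± 0.42, or 5.55-fold lower. In the controls the 3 Sv2c values lay within a narrow range, which Snap25 and Syp did not share.

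The transporters that fill vesicles with glutamate (Slc17a7 and Slc17a6, or VGLUT1 and VGLUT2) and with GABA or glycine (Slc32a1, or VGAT) had log2 fold changes of -2.33, -2.32 and -1.93. Slc17a7 was at 803, 880 and 1987 in the EPN controls and at 439, 294 and 75.9 in EPN Sox9-GOF. Slc17a6 had few reads in EPN Sox9-GOF, at 7.21, 3.49 and 3.84. The groups of Slc32a1 overlapped, since EPN control 2 was at 22.5 and EPN Sox9-GOF 1 at 23.8. At the active zone, where vesicles are primed, Rims1 (-2.27), Pclo (-2.03) and Unc13a (-1.78) had non-overlapping groups, whereas Rims2 (-1.12) and Bsn (-1.38) overlapped.

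On the postsynaptic side the range was wider. Nrgn was at 679, 639 and 1542 in the controls and 403, 267 and 25.9 in EPN Sox9-GOF, a log2 fold change of -2.57 ± 0.97 that shrank to -1.36 without EPN Sox9-GOF 3. Camk2a was at 1992, 3132 and 3676 and then at 849, 1026 and 220 (-2.25 ± 0.57), against Camk2b at -1.07 ± 0.41. The 3 neuroligins were all lower without overlap: Nlgn1, the form of excitatory synapses, had -1.34, Nlgn2 had -1.47 and Nlgn3 had -1.57. Dlg4, the scaffold PSD-95, had the smallest unadjusted p of the 39, with -1.58 ± 0.23. Homer1, which links SHANK proteins to metabotropic glutamate receptors, did not follow: it was at 173, 256 and 373 in the controls and at 306, 126 and 302 in EPN Sox9-GOF, a log2 fold change of -0.12 ± 0.43. The short activity-induced and the long forms of Homer1 are not separated by reads per gene.

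Markers of several cell types had lower values as well. The 16 neuron markers outside the synapse all had negative values with a median of -1.99, 7 of 8 neuroendocrine markers were negative with a median of -2.18, and the medians were -1.49 for 11 astrocyte, -1.36 for 10 oligodendrocyte precursor and -1.76 for 11 mature oligodendrocyte markers. Summed neuron markers ranged from 7002 to 12300 normalized counts in EPN control and from 2977 to 4616 in EPN Sox9-GOF. Medians were -0.34 for 11 microglia and macrophage markers, -0.59 for 8 endothelial, 0.76 for 9 lymphocyte and -0.21 for 5 choroid plexus markers. The part of any of these cells in the result was not tested. Other genes of the 2 compartments had the same sign for the most part: 41 of 43 further presynaptic genes were negative with a median of -1.44, and 31 of 37 further postsynaptic genes with a median of -0.83; 0 of either list passed limma's adjusted threshold. Among the postsynaptic genes Homer2 (0.73) went the other way, with a limma adjusted p = 0.15. Over all 15 libraries, 27 of the 39 genes had the 3 EPN Sox9-GOF libraries below every other library, against 9.23% of the 15109 genes with a mean of at least 10, and in 30 of the 39 the lowest library of all was EPN Sox9-GOF 3. Leaving out each library in turn gave medians from -2.05 to -1.37.

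**Figure D2:**
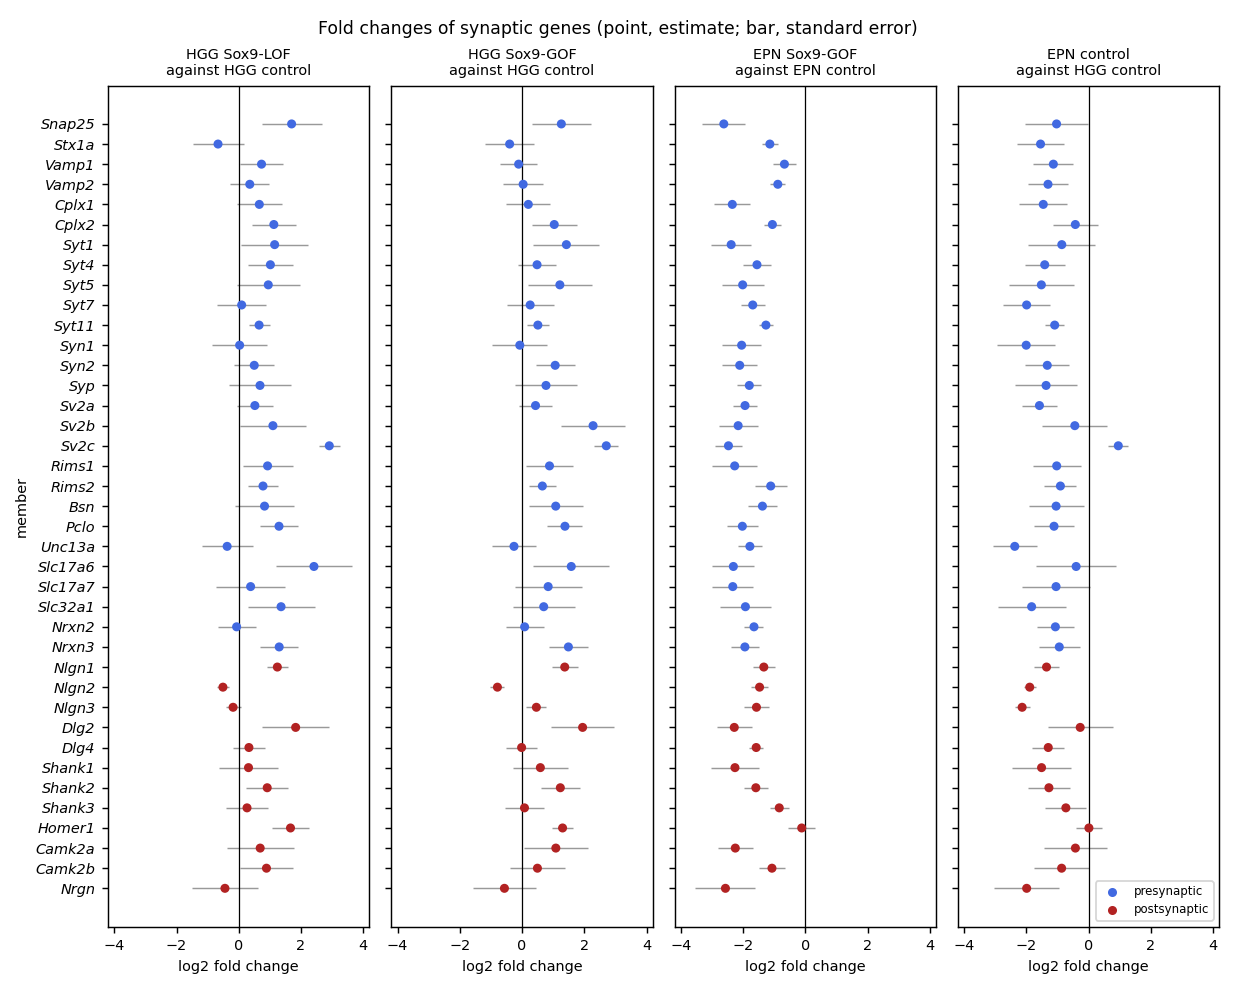
Points are log2 fold changes of the 39 genes in the 4 comparisons of 2 groups and bars are standard errors (3 against 3 libraries each), with presynaptic genes in blue and postsynaptic genes in red. All points lie left of 0 in the EPN comparison, where Homer1 is nearest to 0, while the bars of the HGG comparisons are longer and cross 0 for many genes and Sv2c lies far to the right in both.

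Within the HGG controls the 3 libraries differed more than in any other group. The median SD of the 39 genes was 1.44 on the log2 scale in HGG control, 0.40 in HGG Sox9-GOF, 0.64 in the libraries labelled Sox9-LOF, 0.54 in EPN control and 0.74 in EPN Sox9-GOF. HGG control 1 was the lowest of the 3 controls for 35 genes, and HGG control 3 the highest for 33. Syp, for example, was at 544, 3133 and 9714. Nlgn2 (2493, 2485 and 1823), Nlgn3 (556, 744 and 442) and Sv2c (26.2, 30.8 and 24.9) were lowest in control 3 instead, and the synaptotagmin Syt4 was highest in control 1 (1553, 303 and 1136). The 16 neuron markers outside the synapse followed the same order, with mean deviations of -0.43, 0.46 and 1.80 log2 units from their 15-library mean. Taken relative to those markers in the same library, the SD was smaller for 33 of the 39 genes, with a median of 0.82.

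The libraries labelled Sox9-LOF were compared with HGG control first among the glioma groups. Values were positive for 33 of 39 genes (24 of 27 presynaptic and 9 of 12 postsynaptic), against 50.7% of the 14861 genes tested, with a median log2 fold change of 0.73 against 0.01. By edgeR 26 of the 39 were positive, and by DESeq2 28. No gene was called by limma (0%) or by edgeR; 4 of the 39 had an unadjusted limma p under 0.05, and DESeq2 called 3 higher, Sv2c (adjusted p = 2.09e-11), Nlgn1 (0.0404) and Homer1 (0.0444), against 4.25% of genes called higher. The median turned on single controls, being -0.06 without HGG control 1 and 1.43 without HGG control 3. Groups did not overlap for 4 genes that were higher and 1 that was lower, against 12.8% and 11.7% of all genes, so the share of the 39 was not above that of all genes.

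Sv2c had the largest difference in this comparison: it was at 159, 208 and 288 normalized counts in the libraries labelled Sox9-LOF, against 26.2, 30.8 and 24.9 in the controls. The log2 fold change was 2.91 ± 0.33 (SE), or 7.51-fold higher, with a limma adjusted p = 0.14, and it was 2.88 without HGG control 1. Homer1 was at 652, 412 and 1942 against 171, 240 and 392, a log2 fold change of 1.66 ± 0.60. Nlgn1 was at 678, 562 and 518 against 148, 305 and 325 (1.24 ± 0.35), and Syt11 at 8005, 7917 and 7351 against 3110, 6429 and 5918 (0.65 ± 0.34). These 4 genes were higher in all 3 libraries. Nlgn2 was lower in all 3, at 1609, 1551 and 1589 against 2493, 2485 and 1823, a log2 fold change of -0.51 ± 0.20.

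Large estimates also came with wide errors. Slc17a6 had 2.42 ± 1.22, with 210, 115 and 352 normalized counts against 3.97, 82.0 and 132, and Dlg2, the scaffold PSD-93, had 1.83 ± 1.07, with 1778, 666 and 2198 against 74.6, 508 and 1494. Both groups overlapped. Stx1a (687, 244 and 608 against 233, 806 and 2147) and Nrgn (4644, 1477 and 2454 against 668, 4900 and 12780) had negative values of -0.67 ± 0.82 and -0.44 ± 1.06. Snap25 (13030, 5098 and 12402 against 709, 3094 and 10842), Cplx1 (4087, 1591 and 3067 against 633, 1745 and 4515) and Camk2a (10465, 3018 and 7396 against 721, 5665 and 13497) show the pattern of most members: HGG control 1 lay below the 3 altered libraries, and HGG control 3 lay among or above them. The 16 neuron markers outside the synapse were all positive with a median of 0.76. The 11 astrocyte markers were all positive with a median of 1.46, and the 8 neuroendocrine markers with a median of 0.96. The 9 measured lymphocyte markers were all negative with a median of -2.66. Without HGG control 1 these medians were 0.13, 0.82, 0.13 and -1.81 in the same order. The part of these cells in the result was not tested. In the libraries labelled Sox9-LOF, Syp was at 5353, 2646 and 4897. Vamp2 was at 3865, 3212 and 4374 against 1087, 3647 and 6484 in the controls. Slc17a7 was at 6249, 1797 and 2454 against 450, 2684 and 10196. Camk2b was at 4732, 3120 and 3726 against 466, 3596 and 5088. All of these overlapped as well.

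HGG Sox9-GOF gave values close in size to these, but the 2 comparisons share their controls, so the same spread of controls enters both. Values were positive for 32 of 39 genes (23 of 27 presynaptic and 9 of 12 postsynaptic), against 51.9% of 15092 genes, with a median of 0.69 against 0.03 over all genes. By edgeR 25 of the 39 were positive, and by DESeq2 22. The median was -0.03 without HGG control 1 and 1.47 without HGG control 3. limma called 0 genes (0%) and edgeR 0; 5 of the 39 had an unadjusted limma p under 0.05. DESeq2 called Sv2c, Nlgn1 and Homer1 higher and Nlgn2 lower, against 7.29% and 7.75% of genes. Groups did not overlap for 5 genes that were higher (Sv2c, Pclo, Nlgn1, Shank2 and Homer1) and 1 that was lower (Nlgn2). The shares of all genes were 15.3% and 15.2%, and those of the 39 were not above them.

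Sv2c was at 121, 281 and 169 normalized counts in HGG Sox9-GOF, a log2 fold change of 2.71 ± 0.38 (limma adjusted p = 0.059, DESeq2 adjusted p = 1.01e-07). Pclo, the active zone protein piccolo, was at 906, 788 and 872 against 138, 377 and 709 in the controls (1.38 ± 0.56). Nlgn1 was at 524, 963 and 482 (1.37 ± 0.41), and Homer1 at 725, 491 and 651 (1.30 ± 0.34). Nlgn2 was at 1047, 1442 and 1372, below each control, with -0.79 ± 0.23 and a limma adjusted p = 0.11. Nlgn1 and Nlgn2, whose products serve excitatory and inhibitory synapses, stood on opposite sides of the controls in both altered HGG groups. With GC content and exon length corrected for, Nlgn1 had 0.35 and Nlgn2 -0.16 in HGG Sox9-GOF, and 0.44 and -0.016 with the label Sox9-LOF. Sv2b (3343, 1561 and 3462 against 127, 523 and 2466) and Dlg2 (1555, 1123 and 1789 against 74.6, 508 and 1494) had larger estimates of 2.28 ± 1.02 and 1.94 ± 1.01 with overlapping groups. Nrgn (3089, 1625 and 2443) and Stx1a (652, 369 and 696) again had negative values with overlap, of -0.57 ± 1.02 and -0.40 ± 0.78. Neuron markers outside the synapse were positive for 14 of 16 with a median of 0.36, and astrocyte markers for 11 of 11 with 1.13. Microglia and macrophage markers were positive for 11 of 11 with a median of 0.60, and neuroendocrine markers for 8 of 8 with 0.84. Without HGG control 1 these medians were -0.26, 0.52, 0.58 and 0.10 in the same order. The median of the neuron markers thus turned sign. The part of these cells was not tested. Snap25, Syp and Camk2a lay between HGG control 1 and HGG control 3. In HGG Sox9-GOF Snap25 was at 8498, 4180 and 8808, Syp at 4846, 3157 and 5109 and Camk2a at 8751, 5750 and 9964. Syt11, at 5958, 7590 and 7169, overlapped the upper 2 controls.

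**Figure D3:**
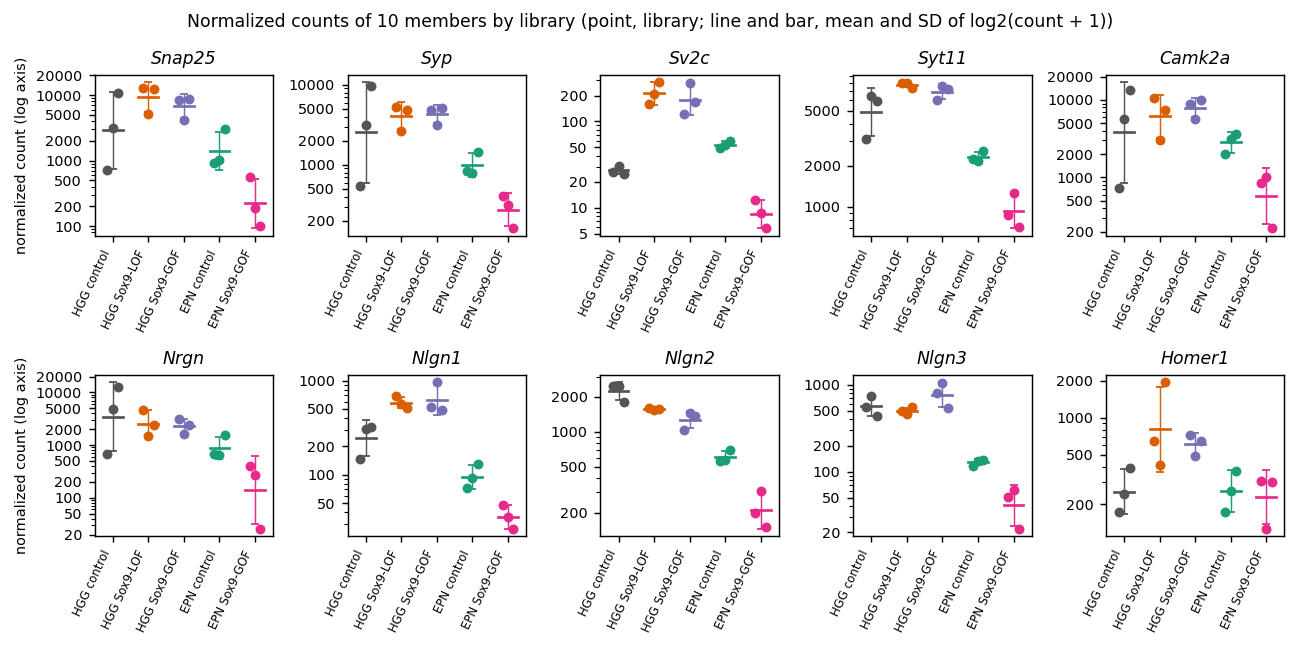
Normalized counts on a log axis for 10 genes; points are libraries, and lines and bars are the mean and SD of log2(count + 1) for the 3 libraries of a group. Sv2c lies between 24.9 and 30.8 in the HGG controls and between 121 and 288 in both altered HGG groups, Nlgn2 steps down from HGG control to EPN Sox9-GOF, and Homer1 has no such step between the EPN groups.

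Other genes of the synapse were read from lists in the same 2 comparisons. Among 44 further presynaptic genes, 39 were positive in the libraries labelled Sox9-LOF with a median of 0.66, and 37 of 43 in HGG Sox9-GOF with a median of 0.66. Among 37 further postsynaptic genes, 24 were positive in each, with medians of 0.12 and 0.17. Without HGG control 1 the medians in the same order were 0.16 and 0.29 for presynaptic and -0.29 and -0.26 for postsynaptic genes. No gene of either list passed limma's adjusted threshold. Unc13c, a priming protein, had the largest value of the presynaptic list, 2.86 ± 0.84 in HGG Sox9-GOF and 3.12 ± 0.93 in the libraries labelled Sox9-LOF. Lrrc4b, a postsynaptic adhesion protein, had -1.18 ± 0.29 and -1.19 ± 0.37.

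Between the 2 models, EPN control was set against HGG control after the reads had been rescaled together. limma called 2339 of 14938 genes (15.7%), 9.54% higher and 6.12% lower, and 2 of the 39 were among those called lower: Nlgn3 (-2.14 ± 0.24, 4.41-fold lower, limma adjusted p = 0.0051) and Nlgn2 (-1.90 ± 0.19, 3.72-fold lower, limma adjusted p = 0.0045). Nlgn3 (chrX:101299168-101325963, GRCm38, plus strand) was at 117, 132 and 137 in EPN control against 556, 744 and 442 in HGG control, and Nlgn2 (chr11:69823122-69837784, minus strand) at 560, 568 and 695 against 2493, 2485 and 1823. Both calls held with each library left out, with limma adjusted p values from 0.0056 to 0.0415. The remaining neuroligin, Nlgn1, was at 71.8, 93.5 and 129 against 148, 305 and 325 (-1.36 ± 0.39, limma adjusted p = 0.064), also without overlap. The neuroligins were the only one of the 9 role groups in which all members had non-overlapping values here. The 2 calls among the 39 were not a larger share than the 6.12% of all genes called lower.

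Over all 39 genes, 37 had negative values with a median of -1.14 (50.1% of all genes were negative, with a median of -0.0019). Groups did not overlap for 5 genes that were lower (Syt11, Unc13a, Nlgn1, Nlgn2 and Nlgn3) and 1 that was higher (Sv2c). The shares of all genes were 18.5% and 22.0%, and those of the 39 were not above them. For the same 5 genes all 6 EPN libraries lay below all 9 HGG libraries, against 7.46% of all genes. Unc13a, the priming factor MUNC13-1, was at 106, 181 and 216 against 283, 1017 and 2024 (-2.38 ± 0.71), and Syn1, the vesicle-tethering protein synapsin 1, at 233, 237 and 636 against 333, 1558 and 4400 (-2.01 ± 0.94). Sv2c was at 49.6, 53.0 and 59.1 against 26.2, 30.8 and 24.9 (0.95 ± 0.32), and Homer1 had 0.01 ± 0.41. The count moved with HGG control 1: without it the median was -1.92 and limma called 24 of the 39 lower, among 3635 genes called in all. DESeq2 with all 6 libraries called 17 lower and 1 higher, against 14.8% and 14.7% of genes. Neuron markers outside the synapse were negative for 16 of 16 (median -1.35) and oligodendrocyte precursor markers for 9 of 10 (median -1.52, 3 called lower). Endothelial markers were positive for 8 of 8 (median 1.85, 3 called) and microglia and macrophage markers for 11 of 11 (median 0.93, 2 called). Astrocyte markers were positive for 8 of 11 (median 0.85), and neuroendocrine markers were negative for 6 of 8 (median -0.53). Without HGG control 1 these medians were -1.81, -1.48, 1.27, 0.76, -0.38 and -1.36 in the same order. The astrocyte median thus turned sign. The part of these cells in the result was not tested. Among the further postsynaptic genes limma called 7 lower and 1 higher, with Lrrc4b at -3.18 ± 0.31 the largest of those named by smallest p, and among the further presynaptic genes 1 lower, Amph (-2.04 ± 0.41).

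The effect of Sox9-GOF in EPN was then set against that in HGG in 1 model of 12 libraries. This contrast uses the libraries of the comparisons above and is no independent evidence of them. limma called 920 of 15145 genes (6.07%), 2.85% with a higher and 3.23% with a lower effect in EPN. All 39 genes had a negative difference, against 51.3% of all genes, with a median of -2.46 against -0.03, and 6 were called: 4 of 27 presynaptic and 2 of 12 postsynaptic. DESeq2 called 11 of the 39 lower and 0 higher, against 8.38% and 7.98% of genes. Sv2c differed most, by -5.18 ± 0.53 (SE) log2 units with a limma adjusted p = 0.0078. The others were Nrxn3 (-3.43 ± 0.83), a neurexin that was at 111, 145 and 263 in EPN control and 63.4, 40.1 and 25.0 in EPN Sox9-GOF but at 137, 289 and 761 in HGG control and 993, 591 and 1092 in HGG Sox9-GOF, then Pclo (-3.40 ± 0.80), Nlgn1 (-2.71 ± 0.56), Nlgn3 (-2.03 ± 0.54) and Syt11 (-1.78 ± 0.40). Their limma adjusted p values were 0.039, 0.038, 0.026, 0.050 (just under the threshold) and 0.034. With the replicate number as a block 5 of the 39 were called, and Pclo was not (limma adjusted p = 0.051). Pclo was at 108, 132 and 257 in EPN control and at 65.6, 27.9 and 25.0 in EPN Sox9-GOF. Nlgn3 was at 810, 1041 and 537 in HGG Sox9-GOF and at 50.5, 61.9 and 22.1 in EPN Sox9-GOF. Larger but uncalled differences were those of Sv2b (-4.44 ± 1.32) and Dlg2 (-4.23 ± 1.27), whose HGG controls were wide. Neuron markers outside the synapse had negative differences for 16 of 16, with a median of -2.25 and 3 called lower (Map2 at -1.83 ± 0.37 among them), and 11 of 11 astrocyte markers were negative with a median of -2.71. Neuroendocrine markers were negative for 8 of 8 (median -2.69), microglia and macrophage markers for 10 of 11 (median -1.24), and lymphocyte markers were positive for 8 of 9 (median 2.53). Without HGG control 1 these 5 medians were -1.62, -2.05, -2.13, -0.95 and 1.90 in the same order. The part of the cells behind these markers was not tested. Of 43 further presynaptic genes limma called 3 lower and 1 higher: the active zone gene Erc2 (-3.45 ± 0.71) and Unc13c (-4.82 ± 1.03) were among the lower, and Stx4a (1.23 ± 0.24), a syntaxin of general secretion, was higher. Of 37 further postsynaptic genes it called 5 lower, among them the adhesion protein Lrrtm2 (-2.75 ± 0.50).

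The call for Sv2c held with each library left out (limma adjusted p values from 0.0079 to 0.038), and the other 5 were each lost at least once, with highest values from 0.070 for Nlgn1 to 0.12 for Nlgn3. Without HGG control 1 the median difference was -1.75 and 5 genes were called, and without HGG control 3 it was 21 genes. After a correction for GC content and exon length only Sv2c was called of the 39 (-4.59, limma adjusted p = 0.016), among 200 genes.

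Presynaptic and postsynaptic genes were then set side by side by their medians. The presynaptic median exceeded the postsynaptic by 0.27 in the libraries labelled Sox9-LOF (0.78 against 0.51) and by 0.23 in HGG Sox9-GOF (0.77 against 0.54). It was lower by -0.36 in the EPN comparison (-1.94 against -1.58), higher by 0.17 between the controls (-1.11 against -1.29) and lower by -0.53 in the difference between models (-2.55 against -2.02). The role given to a gene is a choice, and an alternative left out Syt4, Syt7, Syt11, Camk2a and Camk2b. The differences were then 0.48, 0.34, -0.40, 0.23 and -0.58 in the same order. These comparisons share libraries, and no test was made of the roles. Without HGG control 1 the presynaptic and postsynaptic medians were -0.02 and -0.20 for Sox9-LOF, and 0.04 and -0.32, of opposite sign, for HGG Sox9-GOF. The sign between the controls turned with the method (-0.17 by edgeR, -0.16 by DESeq2 and -0.14 with GC content and length corrected for) and without HGG control 1 (-0.22), and a mean over members in place of the median gave -0.014. Without HGG control 2 it turned for Sox9-LOF (-0.024) and for HGG Sox9-GOF (-0.11). Per library, the mean deviation from the 15-library mean was computed for each role. In HGG controls 1, 2 and 3 it was -1.04, 0.71 and 1.87 for presynaptic and -0.83, 0.96 and 1.52 for postsynaptic genes. In EPN Sox9-GOF it was -1.98, -2.31 and -3.22 against -1.87, -1.90 and -2.89. The difference between roles ranged from -0.41 in EPN Sox9-GOF 2 to 0.34 in HGG control 3, a span far below that of either role, and it was positive in all 3 libraries labelled Sox9-LOF and negative in all 3 of EPN Sox9-GOF. Roles also differ in composition: median GC content was 51.6% in presynaptic and 53.6% in postsynaptic genes, and median exon length 6791 and 9892 bases. With GC content and length corrected for, the difference in the libraries labelled Sox9-LOF was 0.01.

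**Figure D4:**
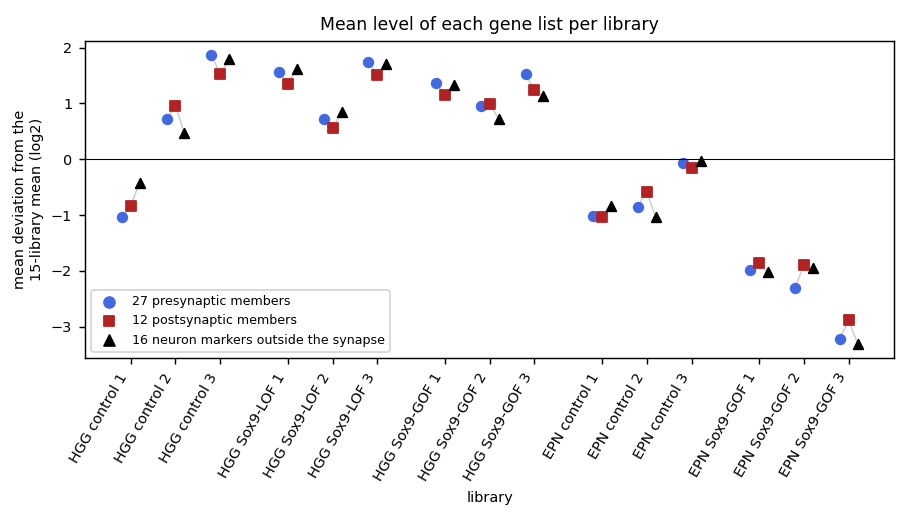
Mean deviation of log2(normalized count + 1) from the 15-library mean, per library, for 27 presynaptic genes (circles), 12 postsynaptic genes (squares) and 16 neuron markers outside the synapse (triangles). The 3 symbols of a library lie close together, from -3.30 to 1.87 across libraries, and HGG control 1 lies below the other HGG libraries.

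Each gene was also expressed relative to the mean of the 16 neuron markers in the same library. This scale was chosen after the values had been seen. On it, a gene that keeps its level moves opposite to the markers. Shares over all genes on this scale therefore follow the marker shift in each comparison and are no baseline for the 39. Those markers shifted by 0.78, 0.45, -1.78 and -1.25 log2 units in the libraries labelled Sox9-LOF, HGG Sox9-GOF, EPN Sox9-GOF and EPN control, each against its control. Relative to them the median of the 39 genes was -0.04, 0.22, -0.06 and 0.12 in the same order. Positive values numbered 19, 25, 18 and 20. Single genes spread around these medians, in the EPN comparison from -0.88 for Snap25 to 1.62 for Homer1. The part of neurons in the differences was not tested. In the EPN comparison the relative median was -0.20 for presynaptic and 0.16 for postsynaptic genes. Vamp1 (1.06 ± 0.51) was the only gene whose relative values did not overlap between EPN Sox9-GOF and EPN control, against 77.4% of all genes higher on this scale, and Homer1 had 1.62 ± 0.78 with overlap.

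The shares of all genes that follow are set by the marker shift too, and no excess among the 39 can be read from them. In HGG Sox9-LOF, 4 genes were higher on the relative scale without overlap, against 1.36% of all genes: Sv2c (2.14), Slc17a6 (1.65), Nrxn3 (0.52) and Pclo (0.52). Stx1a (-1.44) and Dlg4 (-0.45) were lower, against 7.74%. In HGG Sox9-GOF, 7 genes were higher, against 3.17%: Sv2c (2.23), Sv2b (1.81), Dlg2 (1.47), Nrxn3 (1.02), Pclo (0.90), Homer1 (0.83) and Syn2 (0.59), the second synapsin. Dlg4 alone was lower (-0.49), against 4.81%. Without HGG control 1 the relative medians were -0.31 and 0.03 in these 2 comparisons. Between controls, Sv2c (2.21), Homer1 (1.27) and Cplx2 (0.83) were higher in EPN, against 28.4% of all genes, and Unc13a (-1.12) and Sv2a (-0.32) lower, against 1.16%. The relative median of the 39 between controls turned sign, from 0.12 to -0.15 without HGG control 1. For presynaptic genes it went from 0.14 to -0.25, and for postsynaptic genes it was -0.03 with and without that library.

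Ratios between 2 members cancel what the genes share in a library. Of 16 pairs, all but Syp to Nlgn2 of 1 family or compartment and all chosen after the values had been seen, 64 differences were computed over the 4 comparisons; the exact two-sided permutation test gave its smallest value of 0.1 for 21 of them, or 0.30 after Benjamini-Hochberg adjustment, so none can pass. The ratio of Camk2a to Nrgn, per kilobase, was nearly constant in the HGG controls, at 0.210, 0.225 and 0.206, although each gene varied widely there. It was 0.551, 0.689 and 0.794 in HGG Sox9-GOF, a log2 difference of 1.65 ± 0.16 (SE), and 0.439, 0.398 and 0.587 with the label Sox9-LOF, a difference of 1.13 ± 0.17. In the EPN controls it was 0.571, 0.954 and 0.464, and in EPN Sox9-GOF 0.410, 0.748 and 1.65. The HGG controls had the lowest ratio of all groups, with no overlap with any other library.

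The ratio of Shank3 to Shank2 was 3.69, 4.02 and 3.59 in HGG control, 1.37, 1.83 and 1.91 in HGG Sox9-GOF and 1.85, 2.68 and 2.75 with the label Sox9-LOF. It was 5.24, 7.10 and 4.53 in EPN control and 8.11, 11.8 and 9.10 in EPN Sox9-GOF. These groups did not overlap in any of the 4 comparisons, and the direction with Sox9-GOF was down in HGG (-1.16 ± 0.16) and up in EPN (0.79 ± 0.25). The ratio of Nlgn2 to Nlgn1 was 39.2, 18.9 and 13.0 in HGG control, 4.64, 3.47 and 6.60 in HGG Sox9-GOF and 5.50, 6.40 and 7.13 with the label Sox9-LOF. The log2 differences from control were -2.17 for HGG Sox9-GOF and -1.75 for Sox9-LOF, and after correction for GC content and length they were -0.51 and -0.46. In the same order the corrected values were 1.13 and 0.69 for Camk2a to Nrgn, and -0.68 and -0.25 for Shank3 to Shank2. Sv2a to Sv2c was 48.9, 105 and 234 in HGG control and at most 34.5 in both altered HGG groups. The balance of excitatory and inhibitory transporters, Slc17a7 to Slc32a1, was 6.84, 6.35 and 7.71 in HGG control and 10.6, 3.09 and 1.30 with the label Sox9-LOF, with overlap.

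**Figure D5:**
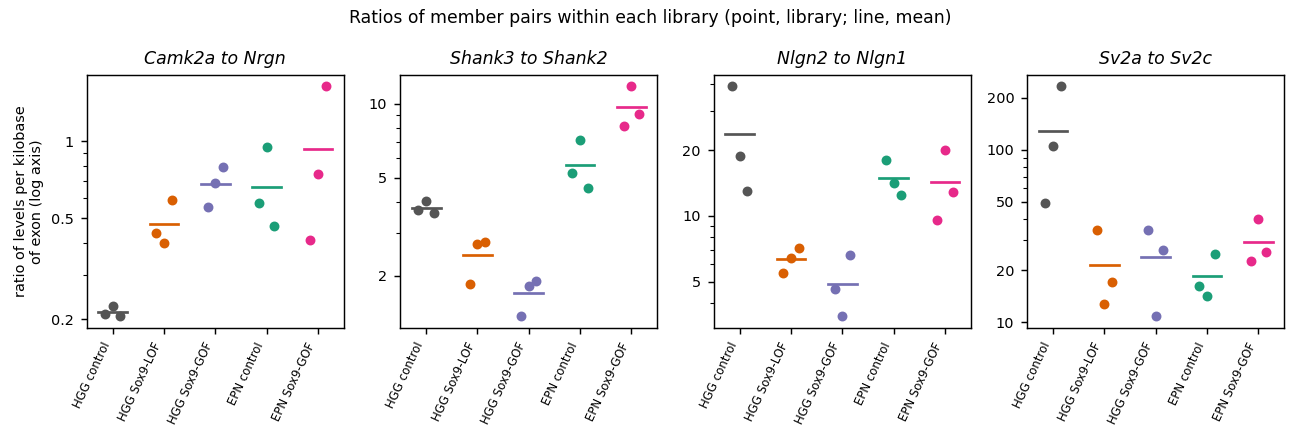
Within-library ratios of levels per kilobase of exon for 4 pairs of genes, on log axes; points are libraries and lines are means of 3. Camk2a to Nrgn is 0.206 to 0.225 in the HGG controls and above 0.39 elsewhere, and Shank3 to Shank2 is lower than its control in both altered HGG groups and higher in EPN Sox9-GOF.

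GC content moved with the HGG estimates. Split after the values had been seen into 13 genes of low (36.9% to 47.4%), 13 of middle and 13 of high GC content (55.1% to 62.4%), the 39 genes had medians of 1.30, 0.65 and 0.08 in HGG Sox9-GOF and of 1.15, 0.69 and 0.26 with the label Sox9-LOF. With a correction fitted on all genes the medians were 0.43, 0.70 and 0.65 in the first and 0.70, 0.74 and 0.68 in the second. Homer1, Nlgn1 and Pclo belong to the low class, and their log2 fold changes in HGG Sox9-GOF became 0.17, 0.35 and 0.62 after correction, while that of Sv2c, in the middle class, became 2.37. In the EPN comparison the 3 classes had medians of -2.03, -1.59 and -1.93, with no order by GC content.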

How the data were processed

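RNA was measured in 15 libraries of mouse brain tumour tissue, 5 groups of 3. PolyA RNA libraries were made with a stranded TruSeq kit, per the labels' protocols. Per the submitters' processing notes, STAR 2.5.0a, DESeq2 1.30.1, FastQC 0.11.7, MultiQC 1.11 and build mm10 were used. The annotation, the read counter and how it treated strand were not given in the sources used here. Overlapping, antisense and near-identical genes are therefore uncertain. The deposited tables hold a signal per gene, which the values show to be read counts divided by 1 size factor per library: dividing by the value of 1 read gave whole reads for 100% of values within 0.001 read. Each of 3 tables has 24421 rows, 27 of them date-named by a spreadsheet, and the recovered reads of the HGG controls are the same in both HGG tables, whose values differ by their size factors.

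Groups were compared with limma 3.58.1 (trended variance, R 4.3.3) on log2(normalized count + 1), over every gene whose mean was 10 or more. P-values were adjusted over all of these by Benjamini-Hochberg, with a threshold of 0.05. Fold changes on this scale understate those of low genes. EPN control against HGG control used recovered reads rescaled over its 6 libraries. The difference of the 2 Sox9-GOF effects used the deposited values, each tumour model on the scale of its own table. edgeR 4.0.16 and DESeq2 1.42.0 on the recovered reads, TMM scaling, a pseudocount of 8, no minimum, a spread shared by 15 libraries, a replicate block, a correction for GC content and exon length, and each library left out were alternatives. Fits of the 3 comparisons within a table were tested on simulated data, by limma, edgeR and DESeq2. TMM scaling, the pseudocount of 8, the replicate block and the correction were tested there too. The fits between tumour models, the shared spread, no minimum, the block joined to the correction and libraries left out were not. Exon length and GC content are from GENCODE annotation of GRCm38, to which 23350 names matched directly and 668 by an older symbol. Correlations of same-numbered deviations were 0.18, 0.44 and 0.22 between HGG Sox9-GOF and HGG control, all above 0.1, so these numbers may pair libraries. HGG control 3, however, correlated more with an HGG Sox9-GOF library of another number. The same-numbered correlations ran from -0.14 to 0.20 for Sox9-LOF and from -0.10 to 0.30 for EPN. The source of any pairing is not in the labels.

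The members, gene lists and tests were chosen with earlier results of these data known. All 39 members are named; library values are given for the most abundant of each role (6 presynaptic, 4 postsynaptic), for called members and for the 3 largest fold changes in each direction of each comparison. Other synaptic genes are named by smallest adjusted p, up to 4 a list, and the first 3 markers of each cell type are its defining markers; other names were chosen after their values were seen. Ratios, GC classes, library orders and values relative to neuron markers were also chosen after seeing the data. 1 gene of the further presynaptic list is not reported here. Protein sequences were not used here.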

Additional observations from a re-analysis of the deposited data

Results flagged for a closer look

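The effect of Sox9-GOF differed between the EPN and HGG models for 6 of the 39 genes by the interaction term of limma over 12 libraries (adjusted p under 0.05). The difference in log2 fold change, EPN minus HGG, was -5.18 for Sv2c, -3.43 for Nrxn3, -3.40 for Pclo, -2.71 for Nlgn1, -2.03 for Nlgn3 and -1.78 for Syt11. In HGG the 6 estimates were positive, from 0.46 for Nlgn3 to 2.71 for Sv2c, and in EPN they were negative, from -2.47 for Sv2c to -1.27 for Syt11. With the replicate number as a block Pclo lost its call (limma adjusted p = 0.051). None of the 12 single effects passed the adjusted limma threshold in its own comparison. Only Sv2c kept its call with each library left out and after correction for GC content and exon length.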

How the results depend on the processing

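Several alternatives changed counts or differences beyond the limits used. DESeq2 called 1339, 2260, 842, 4394 and 2468 genes, and 3, 4, 28, 18 and 11 of the 39, in the libraries labelled Sox9-LOF, HGG Sox9-GOF, EPN Sox9-GOF, EPN control against HGG control, and the difference of the Sox9-GOF effects. With a spread shared by 15 libraries limma called 1108, 2253, 129, 4204 and 1511 genes, and 1, 3, 4, 8 and 11 of the 39, in the same order. With the replicate block it called 1129 genes and 3 of the 39 in EPN control against HGG control, Unc13a besides Nlgn2 and Nlgn3, and Pclo left the calls of the effect difference (limma adjusted p = 0.051); the block gave 0 calls in the other 3 comparisons, as without it. The GC and length correction left 200 genes and 1 of the 39 in the effect difference; with the block it left 7 genes and 1 of the 39, and in EPN control against HGG control 1058 genes and 6 of the 39. The presynaptic minus postsynaptic median became 0.0053 for Sox9-LOF with the correction, with or without the block. For EPN control against HGG control it became -0.17 (edgeR), -0.16 (DESeq2) and -0.14 (correction, with or without the block), a change of sign. For the effect difference it became -0.13 (edgeR), -0.14 (DESeq2) and -0.81 (correction, with or without the block). The cause was not tested. Leaving out each library in turn gave 0 to 6, 0 to 0, 0 to 5, 385 to 3635 and 35 to 2095 genes called, and 2 to 24 and 1 to 21 of the 39 in the last 2 comparisons. Medians of the 39 ran from -0.06 to 1.43, -0.03 to 1.47, -2.05 to -1.37, -1.92 to -0.62 and -2.94 to -1.75, and presynaptic minus postsynaptic from -0.024 to 0.29, -0.11 to 0.49, -0.64 to -0.078, -0.22 to 0.20 and -0.73 to -0.28. Genes without overlap numbered 4 to 16, 5 to 19, 0 and 1 to 1 higher, and 1 to 4, 1 to 10, 34 to 37 and 5 to 35 lower, in the 4 comparisons of 2 groups. Without HGG control 1 the sign turned for 16 of the 39 genes in Sox9-LOF and 13 in HGG Sox9-GOF. Depth limits the genes with few reads, such as Slc17a6 and Sv2c in EPN Sox9-GOF.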
